A study of Mus musculus with 36 samples.

Results

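BATF, BATF3, IRF4, IRF8, JUN, JUNB, FOS and FOSL2 are transcription factors that T cells use when they are activated, and the accessible chromatin around their 8 genes is described here. Its members were the ATAC-seq peaks of the series whose midpoint lay nearest to a protein-coding transcription start site (TSS) of 1 of these genes, or that overlapped the gene itself. By this rule 121 of the 71509 peaks were members, of which Irf4 had 27, Irf8 20, Jun 20, Batf 17, Fos 15, Fosl2 15, Batf3 6 and Junb 1. ATAC-seq measures how often a transposase cuts DNA at a site, so reads at a peak measure accessibility of the DNA there and not expression of the gene.

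The cells were mouse CD4 T cells from 2 lines, each with its own wild-type (WT) controls, in mice of mixed background (129/Sv x C57BL/6). HP1α and HP1γ are heterochromatin proteins that bind methylated histone H3. HP1α KO cells came from mice with a germline deletion of Hp1a, made with CMV-cre, and their controls were Hp1a+/+ littermates. HP1γ KO cells came from mice with floxed Hp1g alleles and Cd4-cre, which deletes in T cells from the thymus onwards, and their controls carried the floxed alleles without cre. Naive cells were CD4+CD62L+ splenocytes profiled before transfer. Conventional T cells (Tconv) had been transferred, together with a mixture of B6D2F1 and C57BL/6 J bone marrow, into lethally irradiated hosts that were C57BL/6 J or CD45.1+ B6 mice, and were sorted 3 weeks later as Vβ6+ cells, which respond to a superantigen of the donor. The sort took CD4+ cells with CD45.2 and H-2Kb and left out those with CD45.1, H-2Kd or Thy1.1, the last being the marker of the injected Treg. In the last condition the Tconv had been co-injected with expanded WT regulatory T cells (Treg). Each of the 12 groups, formed by line, genotype and condition, had 3 libraries.

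AP-1 is a dimer of a JUN and a FOS protein that binds DNA through basic leucine zippers, and it carries the signal of the T cell receptor to many genes. BATF and BATF3 belong to the same structural family, pair with JUN proteins and lack the activation domains of FOS. BATF-JUN dimers recruit IRF4 or IRF8, which on their own bind DNA weakly, to composite sites where a motif for each partner lies side by side. In CD4 T cells this pairing is known for its part in effector differentiation and in exhaustion.

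Since these factors are known to bind AP-1 motifs, such motifs were searched for in the central 300 bases of every peak. The motif TGANTCA, which reads the same on both strands, was found in 16 of 121 members, or 13.2%, and in 13% of all peaks. Among the 47 members that were more open in WT Tconv than in naive cells of both lines it was found in 12, or 25.5%, against 22.9% of all 15371 peaks that were more open in both. Among the 11 members that were less open it was found in 0, against 8.72% of all such peaks. The following 101-base stretches are shown because they lie in distal or intronic peaks that are described below. They are read from the plus strand of GRCm39, with matches to the AP-1 motif in capitals.

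Batf, 7.27 kb upstream of the TSS, chr12:85726200-85726300: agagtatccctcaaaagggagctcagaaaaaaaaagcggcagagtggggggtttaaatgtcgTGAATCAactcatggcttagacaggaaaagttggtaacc
Batf, 26.0 kb downstream, chr12:85759345-85759445: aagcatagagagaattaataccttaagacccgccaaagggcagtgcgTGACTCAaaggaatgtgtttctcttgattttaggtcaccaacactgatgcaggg
Batf3, intron, chr1:190835208-190835308: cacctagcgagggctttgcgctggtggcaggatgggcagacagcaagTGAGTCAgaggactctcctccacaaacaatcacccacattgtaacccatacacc
Irf4, 82.2 kb downstream, chr13:31015471-31015571: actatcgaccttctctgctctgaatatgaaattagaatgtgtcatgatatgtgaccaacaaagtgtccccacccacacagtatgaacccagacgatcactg
Irf8, 26.9 kb upstream, chr8:121436043-121436143: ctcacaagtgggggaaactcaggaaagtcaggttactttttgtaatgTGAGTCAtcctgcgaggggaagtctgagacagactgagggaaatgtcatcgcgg
Jun, 136.0 kb upstream, chr4:95076368-95076468: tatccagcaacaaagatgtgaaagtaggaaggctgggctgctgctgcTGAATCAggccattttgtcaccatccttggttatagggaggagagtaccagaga
Fosl2, 79.5 kb upstream, chr5:32213145-32213245: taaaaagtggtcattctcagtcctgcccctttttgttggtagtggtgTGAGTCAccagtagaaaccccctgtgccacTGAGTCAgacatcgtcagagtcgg

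The stretch near Irf4 is the centre of its peak, where the central window holds no AP-1 match, and it is shown because that peak was called in both lines. Composite BATF-IRF motifs, written as TTTC followed after 4 bases by the AP-1 motif and as GAAA directly followed by it, and the cyclic AMP response element TGACGTCA, were found in 0 members, against 0.267%, 0.329% and 0.832% of all peaks, searched on both strands. An IRF motif, GAAA repeated after 2 bases, was found in 9 members, or 7.44%, against 5.46% of all peaks. An ETS-IRF motif, GGAA followed after 2 bases by GAAA, was found in 7, or 5.79%, against 3.14%. A match is a description of the letters and not a binding site.

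Reads in peaks ranged from 1.49 to 96.8 M (mega) per library, with 19.4 to 90.3 M in the HP1γ line. In HP1α Tconv with Treg they ranged from 1.49 to 50.7 M, and the study left out 3 of these 6 libraries for a low share of reads in peaks and low enrichment at TSSs, which leaves 1 KO and 2 WT libraries. Results for KO against WT in that condition are given with the libraries kept and with all 6. Counts for the effect of Treg in the HP1α line, and for its difference between genotypes, are given with the libraries kept. No called change was seen at the TSS peaks of the targeted genes Cbx5 and Cbx3, whose log2 fold changes lay between -0.16 and 0.13, so accessibility did not check the genotypes. The Cd4 TSS peak was higher in HP1γ KO by 2.55 to 2.77 on the log2 scale in all 3 conditions. Whether the Cd4-cre transgene had a part in this was not tested. The summed TSS counts of 6 naive T cell markers, in CPM (read counts scaled to library size), were 1501 to 1945 in naive libraries and 611 to 999.9 in transferred cells, and those of 8 activation markers were 153 to 177 and 213 to 520. Of B cell markers only Pax5 and Ebf1, of 7, had a TSS peak, summing to 6.39 to 9.995 CPM in naive and 8.82 to 21.4 in transferred libraries. For myeloid and dendritic cell markers, 5 of 8 had a TSS peak, with 36.6 to 54.1 and 51.0 to 85.4 CPM, while Lyz2 and Csf1r had none. Of the NK markers only Eomes, of 3, and of the CD8 markers only Cd8b1, of 2, had a TSS peak, and all 5 Treg markers had one. Cd8b1 had 29.5 to 35.9 CPM in naive and 2.66 to 10.5 in transferred libraries, Eomes 15.7 to 28.6 and 15.4 to 71.1, and the Treg markers summed to 292 to 366 and 213 to 420. The part of other cells in the results below was not tested. Nothing in the labels says that libraries of a group came from separate mice, so p-values measure the spread between these libraries.

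Of the 121 member peaks, 8 covered a TSS, 18 lay elsewhere in the gene and 95 lay outside it. Peaks farther than 50 kb from the TSS made up 32.2% of the members and 19.2% of all peaks, and peaks at their own TSS 6.61%, where 17.5% of all peaks lay at a coding TSS. Fos and Batf are neighbours on chromosome 12, with Jdp2, another bZIP gene, between them. Distal peaks were assigned by distance alone, and a peak need not act on the nearest gene. The peaks farther downstream of Irf4 lie inside Exoc2 and those farthest upstream of Fosl2 inside Babam2. All 121 members passed the filter on low counts in every comparison.

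Every member gene had a promoter peak with reads in every library, and the Batf3 promoter varied most between groups. Per kb of peak, which allows genes to be compared, the median CPM over the 36 libraries was 36.5 at Junb, 33.2 at Fosl2, 30.9 at Jun, 22.3 at Irf8, 19.5 at Irf4, 19.4 at Fos, 16.8 at Batf and 4.74 at Batf3. Single libraries ran from 12.2 to 50.1 at Fosl2, 15.6 to 62.8 at Jun and 1.03 to 12.7 at Batf3, so neighbours in this order overlapped. Between the lowest and the highest of the 12 group means, the log2 CPM of a promoter peak differed by 0.68 at Irf8, 0.71 at Fos, 0.86 at Irf4, 1.03 at Junb, 1.06 at Batf, 1.14 at Fosl2, 1.51 at Jun and 2.69 at Batf3. At every promoter but that of Batf3 the lowest group was HP1α WT or KO Tconv with Treg, whose means include the libraries left out by the study. Junb, which encodes an AP-1 subunit, had only this promoter peak, a region of 13410 bp (chromosome 8, 85700501 to 85713910) that also covers the end of Prdx2.

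**Figure D1:**
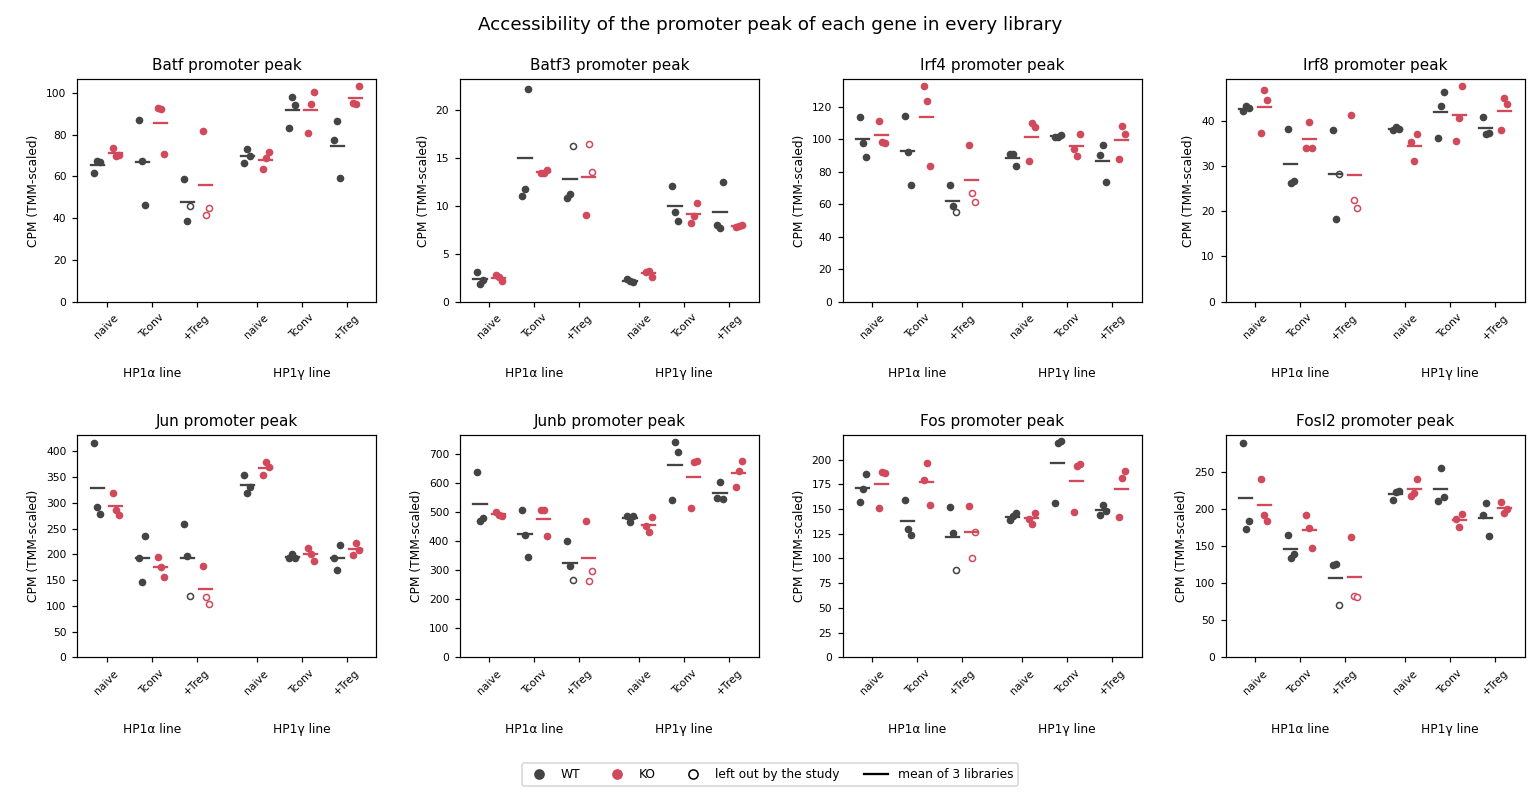
TMM-scaled CPM (vertical axis, from 0) at the promoter peak of each gene, with 1 point per library, WT in grey, KO in red, open points for the libraries left out by the study and a bar for the mean of 3 libraries. The Batf3 promoter is low in naive cells, at 1.81 to 3.18 CPM, and at 7.72 to 22.2 CPM in all transferred groups, while no other promoter is as low in naive cells.

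The promoter peaks whose profile over the 12 group means was most like that of a member, by Pearson's r among 12390 promoter peaks of coding genes, are given as a description, without a test. For Batf3 they were Tppp3 (r = 0.991) and Tmem163 (r = 0.989), for Jun Tspan13 (r = 0.991) and Itpr1 (r = 0.986), and for Irf8 Dnajc16 (r = 0.99) and Tob1 (r = 0.987). Fosl2 was nearest to the shared promoter of Ikbkg and Fam3a (r = 0.993), Junb to St6galnac4 (r = 0.993) and its neighbour Hook2 (r = 0.991), and Batf to the shared promoter of Sgsh and Slc26a11 (r = 0.980). Irf4 was nearest to Insl6 (r = 0.969) and Zfp282 (r = 0.966), and Fos to Cebpb (r = 0.965) and Tex2 (r = 0.964). The groups share library depth and the difference between naive and transferred cells.

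To ask how these genes open when naive cells become Tconv, WT cells were compared within each line. Calls needed an adjusted p below 0.05 together with a log2 fold change beyond 1 in either direction, by edgeR's quasi-likelihood test adjusted over all peaks. In the HP1α line 54 members were called higher and 12 lower in Tconv, where 24.9% of all peaks were higher and 17.5% lower. In the HP1γ line 56 were higher and 13 lower, against 24.5% and 22.0%. The median log2 fold change of the members was 0.78 and 0.64, against -0.03 and 0.08 for all peaks. In both lines 47 were higher and 11 lower, and 0 were called in opposite directions. WT libraries of the 2 conditions did not overlap at 62 of the 66 called members in the HP1α line and at all 69 in the HP1γ line, where the same held for 91.4% and 98.8% of all called peaks. By library size alone, which moved the median of all peaks in the HP1α line to 0.17, 57 members were higher and 8 lower, against 27.2% and 14.2% of all peaks, and in the HP1γ line 54 and 14, against 23.4% and 22.9%. Naive cells were taken before transfer and Tconv after sorting from a host, so activation and transfer cannot be told apart. Between these WT groups Cd8b1 was lower without overlap, at 31.7 to 35.5 CPM in naive and 2.66 to 8.67 in Tconv libraries over both lines, and the myeloid and dendritic cell markers were higher without overlap, at 44.0 to 51.3 and 57.6 to 77.3. The sum of Pax5 and Ebf1 was higher without overlap within each line, at 6.39 to 8.57 and 8.82 to 9.89 in the HP1α line and 8.14 to 9.12 and 9.20 to 14.8 in the HP1γ line. Mean Pax5 rose from 2.84 to 5.25 and from 3.08 to 5.18 in the HP1α and HP1γ lines. Mean Ebf1 fell from 4.53 to 4.02 in the HP1α line and rose from 5.39 to 6.69 in the HP1γ line. The T cell markers other than Cd4 summed to more in the HP1γ line, at 1191 to 1236 and 1299 to 1590, although Il7r fell from a mean of 88.6 to 67.3. The sum of the Treg markers was lower without overlap in the HP1α line, at 324 to 366 and 220 to 309. Mean CPM fell there at Foxp3 (147 to 82.9) and Ikzf2 (70.0 to 40.6). It rose at Ctla4 (71.8 to 73.8), Il2ra (24.7 to 25.3) and Tnfrsf18 (25.1 to 32.4). Eomes was higher in the HP1γ line, at 17.6 to 19.1 and 22.8 to 27.6. Their part in the counts was not tested.

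**Figure D2:**
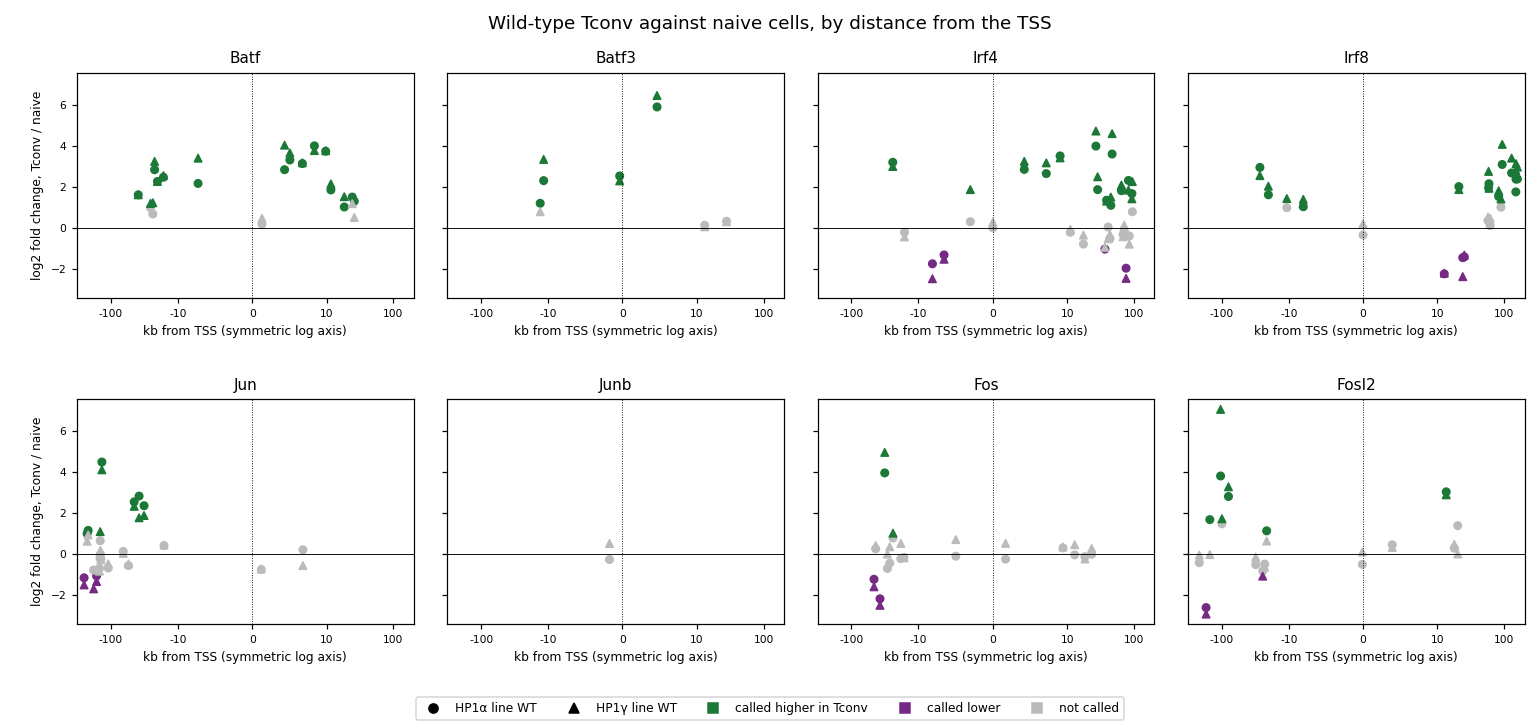
Log2 fold change of WT Tconv against naive cells (vertical axis) at every member peak, by its distance from the TSS in kb on a symmetric log axis, with circles for the HP1α line, triangles for the HP1γ line, green for calls higher in Tconv, purple for lower and grey for no call. The peaks in Batf and on its 2 sides are nearly all higher, those of Irf4, Irf8, Jun and Fosl2 go both ways, and the point of Fosl2 at 7.06 rests on 0 or 1 reads in each naive library.

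By position, the members were set beside all peaks of the same kind. Of the 18 peaks inside a gene but off its TSS, 12 were called higher and 1 lower in each line, with a median log2 fold change of 2.73 in the HP1α line and 3.03 in the HP1γ line. Of all peaks in a coding gene but off a TSS, 29.2% and 28.4% were higher and 19.4% and 24.8% lower. Of the 8 promoters only Batf3 was called, where 7.21% and 8.12% of all peaks at a coding TSS were higher and 6.74% and 7.61% lower, and the medians over the 8 were -0.24 and 0.36. Of the 39 peaks farther than 50 kb, 17 and 18 were higher and 4 and 5 lower, where 31.0% and 29.7% of all peaks at such distances were higher and 28.3% and 33.4% lower.

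At Batf 14 of 17 peaks were higher in each line and 0 lower. All 7 intronic peaks rose in both lines, by 1.01 to 3.99 in the HP1α line and 1.51 to 4.02 in the HP1γ line. The intronic peak 9.88 kb from the TSS (chromosome 12, 85742511 to 85744100) had 0.588, 0.651 and 0.631 CPM in HP1α WT naive cells and 8.29, 7.90 and 7.11 in Tconv, with a log2 fold change of 3.73 ± 0.24 (SE) and an edgeR adjusted p of 1.26e-09. In the HP1γ line the naive libraries had 0.541, 0.366 and 0.635 CPM and the Tconv libraries 5.89, 6.26 and 8.09. No Tconv library fell near a naive library in either line. The Batf promoter had 61.7 to 67.4 CPM in naive and 46.5 to 87.1 in Tconv libraries of the HP1α line, which overlap.

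Batf3, known for its part in dendritic cell development and in T cells after activation, rose at its promoter and in its intron. The intronic peak (chromosome 1, 190834831 to 190835500), which holds the AP-1 match printed above, had 0.305, 0.123 and 0.139 CPM in naive HP1α WT cells and 11.1, 6.64 and 10.5 in Tconv. The log2 fold change was 5.88 ± 0.37 (SE), and 6.44 ± 0.40 in the HP1γ line. Its promoter (chromosome 1, 190829271 to 190831020) rose by 2.52 and 2.28, from 1.81 to 3.07 CPM to 11 to 22.2 in the HP1α line.

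Irf4, induced by T cell receptor signals in proportion to their strength, opened within the gene and far downstream, with 12 of 27 peaks higher and 4 lower in the HP1α line and 14 and 3 in the HP1γ line. The peak on an exon 4.23 kb from the TSS (chromosome 13, 30936321 to 30938720) rose by 2.84 ± 0.21 and 3.23 ± 0.17 (SE). In the HP1γ line it went from 1.61, 1.44 and 1.47 CPM to 14.1, 13.3 and 13. The promoter changed by 0.00 and 0.27. A peak 75.8 kb downstream (chromosome 13, 31008691 to 31009500) closed, from 9.95, 9.95 and 9.25 CPM to 1.24, 1.66 and 2.22 in the HP1γ line, by -2.47 ± 0.16 (SE), and by -1.97 in the HP1α line.

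Irf8, which encodes the IRF that is better known in myeloid and B cells, showed both directions. Of its 20 peaks 12 were higher in the HP1α line and 14 in the HP1γ line, and 3 were lower in each. The intronic peak 12.6 kb from the TSS (chromosome 8, 121478381 to 121479660) fell from 25.0, 27.4 and 28.2 CPM in naive cells to 6.77, 5.58 and 3.98 in Tconv of the HP1γ line, by -2.22 ± 0.14 (SE), and by -2.25 in the HP1α line. Among the rises was a peak 149.0 kb downstream (chromosome 8, 121614441 to 121616280), at 1.92, 1.42 and 1.27 CPM in naive cells and 11.4, 9.49 and 17.2 in Tconv of the HP1γ line. The peak 26.9 kb upstream rose by 2.94 and 2.54. Its promoter changed by -0.36 and 0.19.

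Among the AP-1 genes, Jun had 6 peaks higher and 2 lower in the HP1α line and 5 and 3 in the HP1γ line. The peak 136.0 kb upstream (chromosome 4, 95076031 to 95076870) rose from 0.757, 0.814 and 0.610 CPM to 15.6, 12.7 and 7.11 in the HP1γ line, by 4.11 ± 0.35 (SE), and by 4.49 in the HP1α line. The peaks 163.4 kb and 250.8 kb upstream fell, the first by -1.05 and -1.33 and the second by -1.15 and -1.49. The Jun promoter was 278 to 416 CPM in naive and 146 to 236 in Tconv libraries of the HP1α line, a log2 fold change of -0.75, and -0.71 in the HP1γ line. Both promoter changes had an adjusted p under 0.05, though neither reached the fold threshold.

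Fos, with 15 peaks, had 1 and 2 calls higher and 2 lower in each line. The peak 31.8 kb upstream (chromosome 12, 85488281 to 85489340) rose by 3.96 and 4.96, from 0.649, 0.299 and 0.269 CPM to 9.13, 18 and 8.11 in the HP1γ line. The peak 37.5 kb upstream (chromosome 12, 85482861 to 85483490) fell by -2.17 and -2.49. Fosl2 had 5 and 4 calls higher and 1 and 2 lower. Its intronic peak 13.5 kb from the TSS (chromosome 5, 32305361 to 32307050) rose by 3.04 and 2.90, and the peak 171.4 kb upstream (chromosome 5, 32121021 to 32121520) fell from 5.79, 5.14 and 4.55 CPM to 0.644, 0.602 and 0.701 in the HP1γ line, by -2.92 ± 0.26 (SE).

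Whether HP1γ shapes this chromatin was asked by comparing KO with WT. In naive cells 0 members were called, against 0.14% of all peaks. Before adjustment 8 members had a p under 0.05, against 8.98% of all peaks. DESeq2 called 3 members, against 3.27% of all peaks, which is no more than the background. They were the Batf peak 7.27 kb upstream, the Jun peak 44.8 kb upstream and the Fosl2 peak 104.2 kb upstream, all higher. The log2 fold change was above 0 at 84 of 121 members (69.4%, against 54.8% of all peaks) and at 26 of 27 Irf4 peaks, with a median of 0.11 (0.03 for all peaks). The medians were 0.43 at Batf, 0.30 at Batf3 and 0.23 at Irf4, and 0.00 at Fos. Over all 11 alternatives, each library left out included, the number above 0 was 71 to 84. By library size alone 24 of the 27 Irf4 peaks were above 0. Read depth was 33.9, 32.4 and 82.4 M in the KO and 70.5 to 90.3 M in the WT naive libraries, and its part was not tested. The summed TSS counts of myeloid and dendritic cell markers did not overlap between the genotypes here, with 44.0 to 44.9 CPM in WT and 36.6 to 40.8 in KO, nor did those of activation markers, with 155 to 156 and 161 to 168, and their part in the result was not tested. The 9 T cell markers, Cd4 among them, summed to more in HP1γ KO in all 3 conditions, with 1904 to 2081 against 1297 to 1349 in naive cells, 1892 to 2240 against 1420 to 1704 in Tconv and 1808 to 2076 against 1156 to 1466 with Treg. Without Cd4 the sums overlapped in each.

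In Tconv, 1 member was called higher and 3 lower in HP1γ KO, where 1.69% of all peaks were higher and 1.66% lower. The higher peak lay 26.0 kb downstream of Batf (chromosome 12, 85759001 to 85759790), with 2.70, 2.90 and 3.46 CPM in WT and 4.45, 8 and 7.62 in KO. The KO libraries were all above the WT libraries, by a log2 fold change of 1.16 ± 0.21 (SE; edgeR adjusted p = 0.00339). The lower peaks lay upstream of Fos and Fosl2. The Fos peak 31.8 kb upstream, the Fos peak with the largest rise from WT naive cells to Tconv, had 9.13, 18 and 8.11 CPM in WT and 3.38, 6.93 and 5.06 in KO, a log2 fold change of -1.23 ± 0.33 (SE). With a library left out, 3 of 6 fits kept this call, with log2 fold changes of -1.44 to -0.81. Of the 5 other alternatives 3 kept it, with -1.23 to -1.15. The Fos peak 23.9 kb upstream (chromosome 12, 85496511 to 85496920) had 3.40, 4.20 and 2.74 in WT and 1.48, 1.37 and 1.92 in KO, a log2 fold change of -1.06. The Fosl2 peak 104.2 kb upstream (chromosome 5, 32188351 to 32188720) had -1.87, but its WT values, 2.39, 1.42 and 0.38 CPM, overlapped the KO values of 0.543, 0.580 and 0.191. The summed counts of naive T cell markers were 915 to 999.9 CPM in WT and 852 to 885 in KO, and those of Cd8b1 2.66 to 4.34 and 4.83 to 5.62, without overlap, and their part was not tested. The count of 4 was 1 without WT replicate 2 or KO replicate 3 and 2 without KO replicate 2, while the count over all peaks went from 2392 to 1072, 955 and 1549.

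With Treg, 9 members were higher and 10 lower in HP1γ KO, where 6.48% of all peaks were higher and 5.38% lower. The share of members, 7.44% higher and 8.26% lower, was near this background. Marker sums moved with this comparison too. The 5 Treg markers summed to 267 to 324 CPM in WT and 391 to 420 in KO, and the B cell markers Pax5 and Ebf1 to 9.96 to 13.4 and 16.2 to 20.5, both without overlap, while the TSSs of the other 5 B cell markers had no peak. The Treg markers did not move together. Mean CPM was higher in KO at Ctla4 (89.2 in WT and 166.5 in KO), Ikzf2 (46.7 and 79.4) and Tnfrsf18 (38.2 and 39.2). It was lower at Foxp3 (102.6 and 99.9) and Il2ra (26.5 and 17.3). The sort described above left out Thy1.1+ cells and took CD4+ Vβ6+ cells, and the part of Treg or B cells in these calls was not tested. At Batf 4 of 17 peaks were higher and 0 lower, with 15 of 17 above 0 and a median of 0.68. At Fos 2 of 15 were lower and 0 higher, at Jun 1 of 20 was higher and 3 lower, at Irf4 2 of 27 were higher and 2 lower and at Fosl2 2 of 15 were higher and 3 lower. The promoters were not called, and changed by -0.16 to 0.38. By library size alone the members called were 9 higher and 13 lower, against 5.46% and 6.56% of all peaks. Leaving out KO replicate 1 gave 10 calls in place of 19, and leaving out WT replicate 2 gave 11, while those over all peaks went from 8482 to 3728 and 3723.

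**Figure D3:**
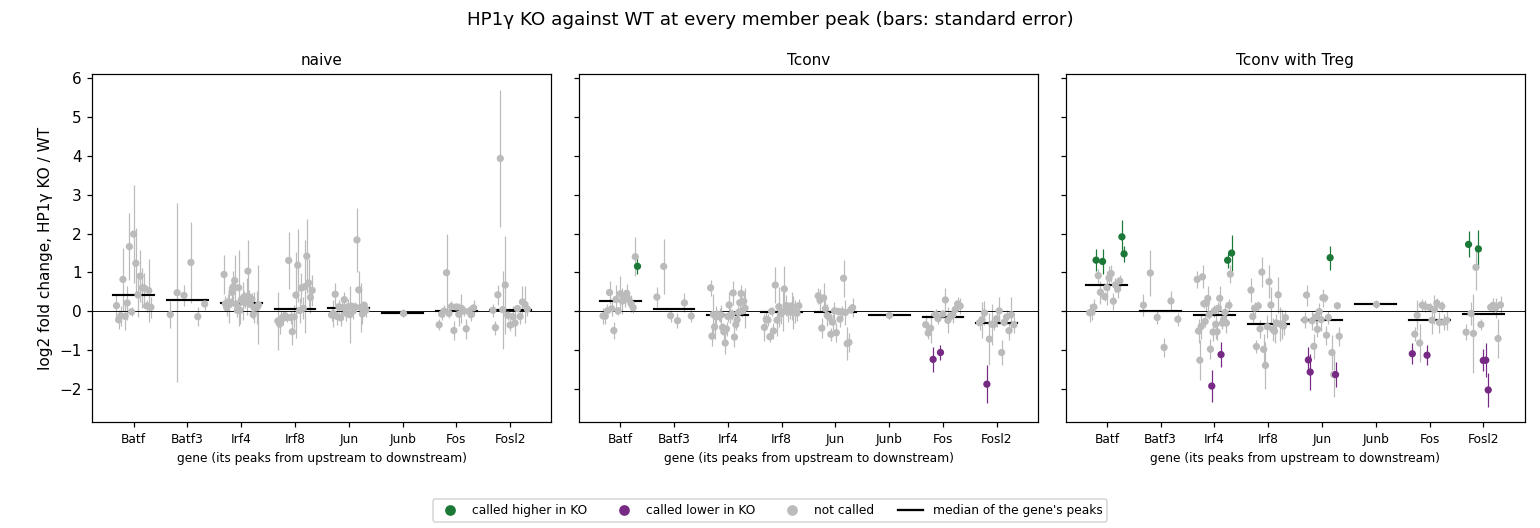
Log2 fold change of HP1γ KO against WT (vertical axis) at every member peak in naive cells, Tconv and Tconv with Treg, ordered within each gene from upstream to downstream, with 1 standard error as the bar, green for calls higher in KO, purple for lower and grey for no call, and the median of the gene as a black line. The Batf median rises to 0.68 with Treg, and called peaks of the other genes lie on both sides of 0.

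The Batf peak 26.0 kb downstream was again the clearest, with 4.18, 3.61 and 3.62 CPM in WT and 9.58, 10.5 and 12.4 in KO, a log2 fold change of 1.48 ± 0.20 (SE; edgeR adjusted p = 0.000122). It kept its call under each of the 12 alternatives run in this condition, among them the fit without the low-count filter, which was nearly the same fit. Its WT libraries changed only from 2.70 to 3.46 CPM without Treg to 3.61 to 4.18 with it, and in HP1α KO with Treg it was at -0.27 and not called. The Batf peak 22.2 kb upstream (chromosome 12, 85711001 to 85711490) had 1.09, 1.42 and 2.24 CPM in WT and 4.10, 2.63 and 4.04 in KO. All 4 Batf calls lay outside the gene, at 22.2 and 7.27 kb upstream and 24.2 and 26.0 kb downstream, with log2 fold changes of 1.28 to 1.92, and the intronic peaks had 0.26 to 0.97 and were not called.

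Irf4 moved both ways along its downstream region. The peak 82.2 kb downstream (chromosome 13, 31014711 to 31016330) had 8.94, 6.15 and 8.28 CPM in WT and 23.9, 14.4 and 19.5 in KO with Treg, so that the lowest KO library was above the highest WT library, with a log2 fold change of 1.31 ± 0.20 (SE; edgeR adjusted p = 0.000316). A peak 94.0 kb downstream was higher too, by 1.5. The peak 26.9 kb downstream (chromosome 13, 30959951 to 30960380), which was higher by 4.71 in WT Tconv than in naive cells of this line, had 1.09, 3.46 and 1.81 CPM in WT and 0.17, 0.983 and 0.479 in KO, a log2 fold change of -1.92 ± 0.42 (SE; edgeR adjusted p = 0.00361). With a library left out it was -2.84 to -1.26, and 5 of 6 fits kept the call. The peak 46.9 kb downstream was lower by -1.11, with 3.72, 8.54 and 4.57 CPM in WT and 1.34, 2.77 and 4.20 in KO, which overlap.

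At the AP-1 genes, the Jun peak 16.0 kb upstream (chromosome 4, 94956041 to 94956960) had 6.17, 11.9 and 7.47 CPM in WT and 1.24, 4.55 and 2.34 in KO, with a log2 fold change of -1.62 ± 0.33 (SE). It was at -0.80 in Tconv without Treg, where it was not called. The Jun peak 44.8 kb upstream (chromosome 4, 94984991 to 94985460) was higher by 1.38, although its KO values of 3, 1.63 and 2.24 CPM overlapped the WT values of 0.667, 0.647 and 1.86. The Fos peaks 46.1 kb (chromosome 12, 85474151 to 85475050) and 23.9 kb upstream were lower by -1.09 and -1.13, the first with 1.46, 2.42 and 1.90 CPM in WT and 0.596, 1.04 and 1.09 in KO.

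Fosl2 had a cluster of 3 lower peaks 21.4 to 24.5 kb upstream, of which the one at 21.4 kb (chromosome 5, 32271231 to 32271450) had 1.13, 1.84 and 1.29 CPM in WT and 0.17, 0.456 and 0.452 in KO, a log2 fold change of -2.02 ± 0.43 (SE). Its higher peaks lay 171.4 and 79.5 kb upstream, by 1.72 and 1.60. The first had 0.950, 0.523 and 1.05 CPM in WT and 2.83, 1.95 and 3.49 in KO, and it is the peak that was lower in WT Tconv than in naive cells. The second had 1.19, 0.921 and 0.809 in WT and 4.94, 0.878 and 3.54 in KO, which overlap. Irf8, Batf3 and Junb had 0 called peaks in this comparison. In all, KO and WT libraries did not overlap at 16 of the 19 called members, or 84.2%, against 83.3% of all called peaks.

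The peaks called with Treg were then followed into data that did not choose them. Of the 9 higher ones, 7 were called higher and 1 lower in WT Tconv against naive cells in the HP1α line, and of the 10 lower ones 4 were higher and 1 lower. In the HP1γ line the counts were 6 and 1 of the 9, and 3 and 3 of the 10. Of all peaks, 24.9% and 24.5% were higher and 17.5% and 22.0% lower in the 2 lines. Between HP1γ KO and WT, 8 of the 9 higher peaks were above 0 in naive cells and 7 in Tconv, and of the 10 lower peaks 7 and 8 were below 0, where 54.8% and 53.0% of all peaks were above 0. Between HP1α KO and WT with Treg, all 9 higher peaks had a log2 fold change below 0 in the kept libraries and over all 6, where 44.1% and 45.4% of all peaks were above 0, and 1 was called in each, against 1.41% and 0.730% of all peaks called lower. Of the 10 lower peaks 6 and 3 were above 0. Read depth differed between the HP1α genotypes there, with 50.7 M reads in the kept KO library and 12.7 and 1.49 M in the WT libraries, and the part of depth in these values was not tested. The shares in this paragraph are over all peaks. Those over all other peaks called in HP1γ KO with Treg were not computed, so whether these counts are particular to the members was not tested.

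HP1α KO cells differed from WT at few members. In naive cells 0 of 121 were called, against 0.00559% of all peaks, and before adjustment 0 had a p under 0.05, against 1.17%. In Tconv 0 were called, against 0.0210%, and 10 had an unadjusted p under 0.05, against 4.83%. DESeq2 called 0 in both, against 0.00979% and 0.0168% of all peaks. With Treg, in the libraries kept, 0 were higher and 1 lower, where 0.218% of all peaks were higher and 1.41% lower. This was the Irf4 peak 82.2 kb downstream, with 21.5 and 16.6 CPM in the WT libraries kept, 9.71 in the WT library left out, 8.14 in the KO library kept and 9.77 and 8.80 in those left out. The log2 fold change was -1.34 ± 0.30 (SE; edgeR adjusted p = 0.0310). With 1 KO library, the SE and p rest on the spread within the other groups, and the lone library is assumed to vary as they do. The peak was not called without either WT library (-0.96 and -1.30), with log2 depth as a covariate, with only the groups compared, with the earlier method of edgeR or by DESeq2. Of the 6 alternatives that used every kept library, 2 kept the call and 4 lost it, with log2 fold changes of -1.41 to -1.21 and adjusted p of 0.0250 to 0.249. Over all 6 libraries its log2 fold change was -1.02 and not called. In the kept libraries the KO library lay outside the 2 WT libraries in the sums of T cell markers, with 1288 CPM against 782 to 1097, activation markers, with 403 against 248 to 335, and myeloid and dendritic cell markers, with 59.1 against 51.0 to 58.3. Over all 6, Pax5 and Ebf1 summed to 20.9 to 21.4 CPM in WT and 10.7 to 18.3 in KO, Eomes to 38.5 to 62.0 and 32.7 to 37.3, and the naive T cell markers to 611 to 683 and 719 to 845, all without overlap, and their part in the values was not tested.

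Over all 6 libraries 0 members were higher and 1 lower, against 0.0126% and 0.730% of all peaks. This was the Fosl2 peak 79.5 kb upstream (chromosome 5, 32213071 to 32213440), at 3.31, 4.81 and 2.16 CPM in WT and 0.884, 0.968 and 0.844 in KO. The groups did not overlap, and the log2 fold change was -1.79 ± 0.43 (SE; edgeR adjusted p = 0.0412). The call was lost with each library left out except WT replicate 3, where the log2 fold changes were -1.96 to -1.67, and in 4 of the 5 other alternatives with an adjusted p, where the log2 fold changes were -1.85 to -1.54. In HP1γ KO with Treg the same peak had 1.60.

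**Figure D4:**
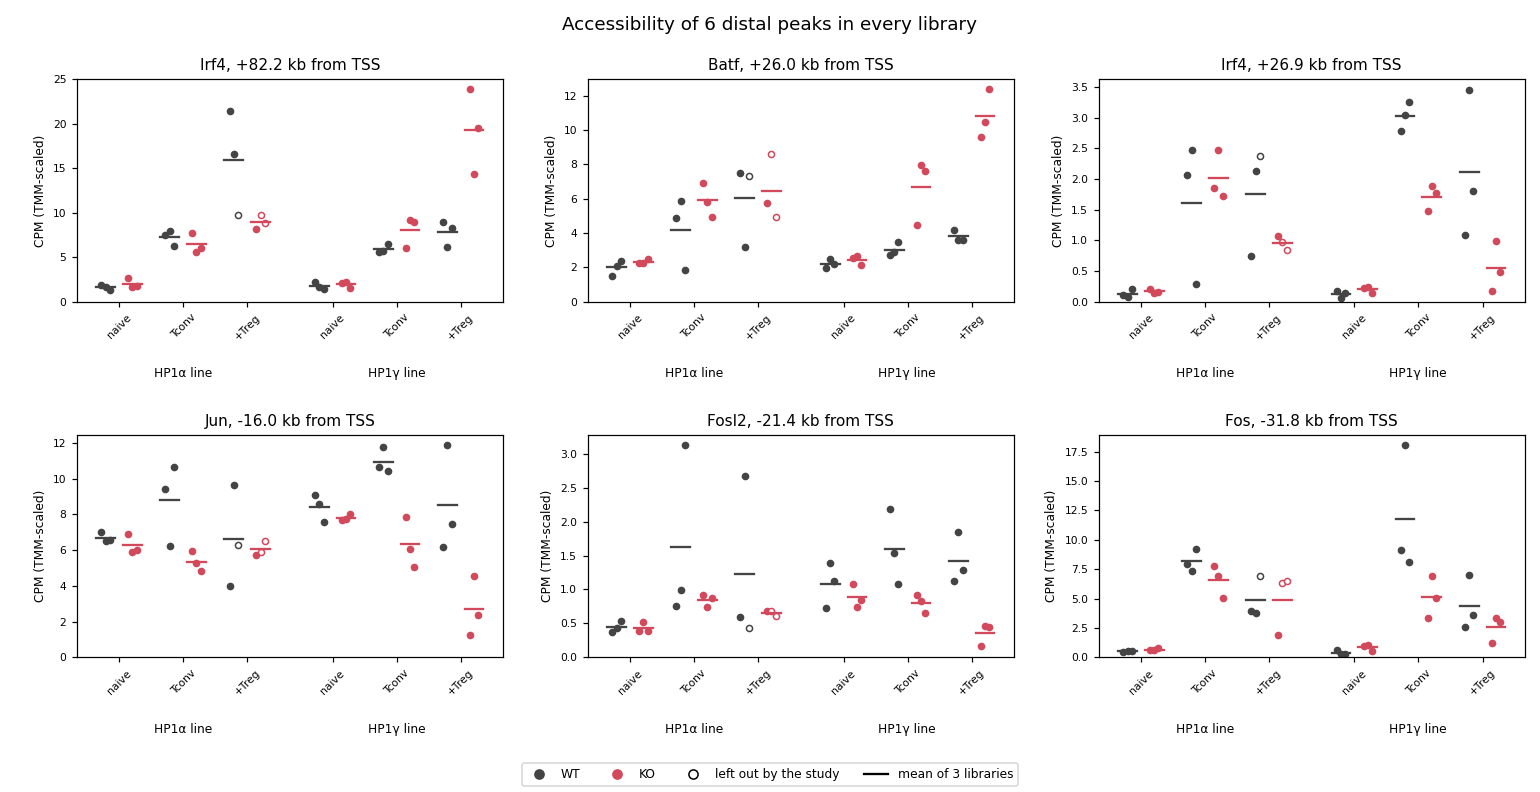
TMM-scaled CPM (vertical axis, from 0) in every library at 6 distal peaks named above, with WT in grey, KO in red, open points for libraries left out by the study and bars for the mean of 3 libraries. At the Irf4 peak 82.2 kb downstream 1 HP1α WT and 1 HP1γ KO library with Treg reach above 20 CPM, and the Batf peak 26.0 kb downstream is above 9 CPM only in HP1γ KO with Treg.

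The effect of Treg was compared within each genotype. These comparisons share the libraries with Treg with those of KO and WT above. In HP1α WT, 3 members were higher and 2 lower with Treg, where 4.92% of all peaks were higher and 1.84% lower. Pax5 and Ebf1 summed to 8.82 to 9.89 CPM without Treg and 20.9 to 21.4 with it, Eomes to 18.8 to 36.5 and 38.5 to 62.0, and the naive T cell markers to 832 to 905 and 675 to 683, without overlap, and their part was not tested. The Irf4 peak 82.2 kb downstream rose from 7.47, 7.90 and 6.26 CPM to 21.5 and 16.6, by 1.48 ± 0.27 (SE; edgeR adjusted p = 0.00301). The Jun peak 44.8 kb upstream and the Fosl2 peak 79.5 kb upstream were higher by 2.39 and 1.87, on values of 0.363 to 1.28 and 0.711 to 1.39 CPM without Treg. The Batf peak 38.9 kb upstream (chromosome 12, 85694151 to 85694910) was lower by -1.44 and the peak on a UTR of Irf4 (chromosome 13, 30949951 to 30951590) by -1.18. With log2 depth as a covariate 1 of the 5 remained, the Irf4 peak, at 1.54. The count was 0 without replicate 1 with Treg, 2 without replicate 2 with Treg, 1 without Tconv replicate 1 and 8 without Tconv replicate 2, while the 4837 calls over all peaks became 0, 2973, 1476 and 5799.

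In HP1α KO, with 1 library with Treg, 0 members were higher and 1 lower, against 0.266% and 0.284% of all peaks. This was the Fos peak 31.8 kb upstream, at 7.78, 6.92 and 5.06 CPM without Treg and 1.88 with it, a log2 fold change of -1.85 whose error, as above, comes from the other groups, while the libraries left out had 6.29 and 6.51. In the library kept the myeloid and dendritic cell markers summed to 59.1 CPM, against 68.3 to 74.6 without Treg, and the activation markers to 403 against 305 to 399, and their part was not tested. In HP1γ WT 0 members were called, against 0.137% of all peaks, and 19 had an unadjusted p under 0.05, against 20.3% of all peaks. With the replicate number as a block, which pairs these libraries, 2 were called, against 1.61% of all peaks, both lower, the Fos peak 31.8 kb upstream at -1.48 and the Fosl2 peak 104.2 kb upstream at -2.70, and DESeq2 called 4, against 3.26%. These counts are near their backgrounds. The Fos peak went from 9.13, 18 and 8.11 CPM to 2.57, 7 and 3.57.

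In HP1γ KO 9 members were higher and 4 lower with Treg, where 6.10% of all peaks were higher and 2.06% lower. Of the higher ones 3 lay at Batf, 3 at Irf4, 2 at Fosl2 and 1 at Jun, and of the lower ones 2 at Jun and 1 each at Irf4 and Fosl2. The Treg markers summed to 289 to 371 CPM without Treg and 391 to 420 with it, and Pax5 and Ebf1 to 11.1 to 15.4 and 16.2 to 20.5, without overlap, and their part was not tested. Among the Treg markers, mean CPM rose at Ctla4 (114 to 166.5), Ikzf2 (55.1 to 79.4) and Tnfrsf18 (38.6 to 39.2). It fell at Foxp3 (105.6 to 99.9) and Il2ra (26.8 to 17.3). The Irf4 peak 82.2 kb downstream rose from 6.01, 9.19 and 8.97 CPM to 23.9, 14.4 and 19.5, by 1.25 ± 0.19 (SE; edgeR adjusted p = 0.000358). The Fosl2 peak 171.4 kb upstream rose by 2.26 ± 0.34 (SE), from 0.835, 0.763 and 0.223 CPM to 2.83, 1.95 and 3.49. The Fosl2 peak 24.5 kb upstream (chromosome 5, 32268001 to 32268470) fell by -1.16. The count of 13 was 3 without KO replicate 1 with Treg, 22 without replicate 2 with Treg and 7 without either of Tconv replicates 1 and 3, while the 5831 calls over all peaks became 2132, 9339, 3795 and 4010.

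The test of the difference between genotypes in their response to Treg called 0 members in either line, against 0.0461% of all peaks for HP1α and 0.00140% for HP1γ, with 7 and 17 members at an unadjusted p under 0.05, against 10.3% and 12.8% of all peaks. DESeq2 called 0 and 1, against 0.295% and 1.12%. For the difference between HP1γ genotypes in the change from naive cells to Tconv, 0 were called, against 0.0140% of all peaks, with 11 at an unadjusted p under 0.05, against 9.51%, and 2 by DESeq2, against 1.93%. The median of the members was -0.31 (-0.03 for all peaks) and 32 of 121 were above 0 (26.4%, against 46.2%). The naive and Tconv libraries here are those of the comparisons of HP1γ KO with WT above, with the same difference in depth between naive genotypes.

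Of 18 other bZIP and IRF genes, 17 had peaks, 114 in all. In WT Tconv against naive cells 41 of these were higher and 10 lower in the HP1α line and 44 and 10 in the HP1γ line, where 24.9% and 24.5% of all peaks were higher and 17.5% and 22.0% lower, with medians of 0.44 and 0.47. Jdp2, a repressor of the AP-1 family, had 10 and 12 of 16 peaks higher and 1 lower in each line. Its intronic peak (chromosome 12, 85678621 to 85680120) was at 4.28 in the HP1α line and at -1.89 in HP1γ KO with Treg. Irf1, induced by interferon, had 7 of 18 peaks higher in each line, by up to 3.99 and 5.23 at a peak 40.0 kb away. In HP1γ KO with Treg 8 of the 114 were higher, all of them at Irf2, which has 32 peaks, and 3 were lower, where the shares of all peaks were 6.48% and 5.38%.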

How the data were processed

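The 36 libraries are ATAC-seq libraries of mouse CD4 T cells. The authors trimmed reads with Trim Galore 0.6.7, aligned them to GRCm39 with BWA, removed duplicates and blacklisted regions, called peaks in each sample, merged them and counted reads with featureCounts 2.0.3, and they deposited the read counts per merged peak. The peak caller can place neighbouring sites in 1 interval, and reads that overlap several peaks were counted in each. Of 71512 intervals, 3 without width were left out. Peaks were assigned to genes by GENCODE vM39, and 0 sample columns were left unused.

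Counts were filtered with filterByExpr, scaled by TMM and tested with the quasi-likelihood method of edgeR 4.0.16, in 1 fit per line, with Benjamini-Hochberg adjustment over all peaks. The HP1α fit used the 15 libraries the study kept and, as an alternative, all 18. The HP1γ fit used 18. The biological coefficient of variation was 26.6%, 30.6% and 22.2%. CPM, the counts scaled to library size, were scaled by TMM over all 36 libraries, and log2 CPM used a prior count of 2. Intervals between libraries cover the spread over these libraries only. The HP1γ fit was tested on simulated counts with the same dispersion at every peak. The HP1α fits, with fewer libraries in some groups and shallower ones, were not tested in this way.

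By rule the text names the promoter peak of each gene, up to 2 called peaks per gene with the smallest p in each comparison of KO with WT, the called peak with the smallest p in each direction in every other comparison, and the 2 genes whose promoter profile was most like that of each member. Other peaks named beside a small count or a printed sequence were chosen after their values were seen. The members and gene lists were chosen with earlier results of these data known. Replicate numbers were taken to pair libraries only where all 3 correlations of same-numbered deviations were over 0.1, which held for HP1α KO and WT naive cells (0.247 to 0.500), KO and WT of the HP1γ line with Treg (0.147 to 0.323) and HP1γ WT with and without Treg (0.202 to 0.286). No main fit used the replicate block, even in these comparisons, so the main counts, SEs and p-values leave the pairing out. The block was used in alternative fits only, and its counts are given here for some comparisons and not for all. This pairing comes from the data, since no label explains the numbers. Alternatives were library size alone, no filter beyond 1 read, log2 depth as a covariate, only the groups compared, the replicate block, DESeq2 1.42.0 and each library left out. The main filter kept 71509 peaks in the HP1α fit of kept libraries and 71508 in the other fits. The alternative without it could therefore change little. The earlier quasi-likelihood method of edgeR was added after the data were seen. Motifs were searched in the central 300 bases of each peak. Not every gene of the wider bZIP and IRF list is reported by name here, and the counts over that list include all of its peaks.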

Additional observations from a re-analysis of the deposited data

Results flagged for a closer look

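At 3 members HP1γ KO with Treg was higher than WT in every library, while the 1 HP1α KO library kept by the study was lower than both WT libraries kept. The difference between the HP1γ and the HP1α log2 fold change was 2.423 at the Batf peak 22.2 kb upstream (1.32 and -1.11), 2.659 at the Irf4 peak 82.2 kb downstream (1.31 and -1.34) and 3.053 at the Fosl2 peak 171.4 kb upstream (1.72 and -1.33). The difference between the lines was not tested. Over all 6 HP1α libraries KO and WT overlapped at all 3 peaks, with log2 fold changes of -0.42, -1.02 and -1.12. The Batf peak then had 2.70, 3.74 and 2.59 CPM in WT and 1.32, 4.16 and 3.38 in KO, so that the 2 KO libraries left out were not lower. The Irf4 peak had 21.5, 16.6 and 9.71 in WT and 8.14, 9.77 and 8.80 in KO, and the Fosl2 peak 2.25, 4.28 and 1.94 in WT and 0.996, 0.581 and 2.05 in KO. The groups hold 3 libraries, too few for a check of single outlying libraries.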

How the results depend on the processing

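The 16 named calls between KO and WT gave 183 values under the alternatives, of which 147 kept the call, 36 lost it and 0 changed direction. These include the values without the low-count filter, which come from nearly the same fit. The number of members called between HP1α KO and WT with Treg went from 1 to 0 with the earlier edgeR method, log2 depth or only the groups compared, to 3 by DESeq2, all lower, and was 0 to 0 with a library left out, while the 1167 calls over all peaks became 100, 41, 0 and 2554, and 0 to 523 with a library left out. Over all 6 libraries it was 0 by library size alone, with the earlier method, log2 depth or the replicate block, and 0 to 2 with a library left out, and over all peaks 484, 1, 375 and 560 in place of 531, and 0 to 766. For HP1γ KO, DESeq2 called 3 members in naive cells. In Tconv the earlier method and DESeq2 each called 2, and leaving out a library gave 1 to 5, with 1291, 2458 and 955 to 3792 in place of 2392 over all peaks. With Treg the count was 10 to 28 with a library left out and 21 with the replicate block, with 3723 to 11573 and 10196 in place of 8482 over all peaks. For the effect of Treg it was 1 with log2 depth and 0 to 8 with a library left out in HP1α WT, and 0 with the earlier method in HP1α KO, with 1730, 0 to 5799 and 0 over all peaks, in place of 4837 and 393. In HP1γ WT it was 2 with the replicate block, 4 by DESeq2 and 0 to 2 with a library left out, with 1151, 2329 and 1 to 865 in place of 98 over all peaks. In HP1γ KO it was 7 with the earlier method and 3 to 22 with a library left out, with 3356 and 2132 to 9339 in place of 5831. For the difference between HP1γ genotypes in the response to Treg it was 3 with the replicate block, which called 2.52% of all peaks, 1 by DESeq2 and 0 to 1 with a library left out, and for the change from naive cells to Tconv 2 by DESeq2. The cause of these changes was not tested. For that block and for the one over all 6 HP1α libraries the numbers do not pair the libraries, with same-numbered correlations down to -0.27 and -0.06. From naive cells to Tconv the counts were 59 to 65 in the HP1α line and 65 to 68 in the HP1γ line with a library left out, with 26543 to 30021 and 31996 to 33740 over all peaks. At 1.49 M reads, the depth of 1 HP1α library, 1 CPM as scaled here is 1.87 reads, and the part of depth in the calls of low peaks was not tested.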
